A study of Homo sapiens with 17 samples.

Results

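UTX knockout (KO) human neurons had 4494 H3K27me3 peaks that overlapped no peak of the wild-type (WT) list, and these KO-only peaks are described here. They make up 41.0% of the 10950 H3K27me3 peaks of the KO list, out of 60371 deposited peaks of both marks and genotypes. A KO peak on chromosomes 1 to 22 and X was chosen if no WT peak overlapped it by 1 bp or more. The other 6456 KO peaks are called shared, and 2867 of the 10340 WT peaks (27.7%) overlapped no KO peak. Since the choice used the positions of the peaks in both lists, their number, length, fold enrichment and distances are given as a description, with no test. The RNA of the genes at these peaks was not used in the choice.

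Neurons were grown for 40 days from the established human embryonic stem cell line H9, at passage P40 in every group. The KO group holds lines KO1 and KO2, both with the genotype UTX-/-, and the WT group holds H9 neurons with the wild-type genotype. The labels do not say how the KO lines were edited or whether each is a clone. RNA came from 5 KO libraries (3 of KO1 and 2 of KO2) and 3 WT libraries, with totals of 17.4 M to 31.5 M estimated counts. Chromatin immunoprecipitation (ChIP) had 1 library per line and mark, set against a control that the sample names call input and the antibody label calls rabbit IgG. Both KO lines are tied to a single KO peak list, made from 1 treatment alignment. The labels do not say how the lines entered that alignment, and no peak difference has a replicate check.

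H3K27me3 is trimethylation of a lysine in the tail of histone H3. Polycomb repressive complex 2 writes it, and UTX (gene symbol KDM6A), a demethylase, removes it. The mark is known for broad domains over CpG-rich starts of developmental genes that a cell does not use. In neural progenitors and neurons, genes of other lineages lie under it, while genes of the cell's own programme are largely free of it.

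The KO list was made from 37.6 M ChIP tags and 45.7 M control tags, against 22.4 M ChIP tags and 23 M control tags for the WT list. The KO list therefore had 1.68 times the ChIP tags and 1.99 times the control tags. The part of this depth difference in the number of KO-only peaks was not tested. KDM6A RNA averaged 33.0 ± 5.50 CPM (library-scaled counts per M; SD, n = 5) in KO and 35.7 ± 0.457 CPM (SD, n = 3) in WT. Counts summed over a gene cannot check an edit whose position is unstated. Neuronal MAP2 stood at 160 to 1287 CPM in KO and 780 to 1192 CPM in WT, and TUBB3 at 161 to 978 CPM in KO and 968 to 1148 CPM in WT. Pluripotency genes POU5F1 and NANOG were at most 0.303 CPM in KO and 0.365 CPM in WT. KO1 replicate 2 and both KO2 libraries stood apart by their collagen RNA. COL1A1, a fibrillar collagen chain, stood there at 27544, 9226 and 14456 CPM, against 278 and 258 CPM in KO1 replicates 1 and 3 and 126, 7.65 and 387 CPM in WT. The mesenchymal markers COL1A2, COL3A1 and LUM split the libraries in the same way, but TAGLN did not. It stood at 511, 815 and 477 CPM in those 3 libraries and 312 and 51.0 CPM in KO1 replicates 1 and 3. In WT it stood at 9.81, 5.97 and 19.1 CPM, so KO1 replicates 1 and 3 were not at the WT level of every mesenchymal marker. The mean log2 CPM over 34 mesenchymal genes was 9.30, 8.16 and 8.67 in those 3 libraries, 4.79 and 4.64 in the other KO libraries, and 3.88, 2.43 and 4.88 in WT. MAP2 stood at 160, 715 and 363 CPM and TUBB3 at 161, 370 and 410 CPM in the same 3 libraries. The other KO libraries had 932 and 1287 CPM of MAP2 and 897 and 978 CPM of TUBB3. Over 25 pan-neuronal markers the mean log2 CPM was 5.02, 6.80 and 5.90 in the 3 libraries. It was 7.14 and 7.31 in the other KO libraries and 7.04, 7.58 and 6.83 in WT. The 3 libraries are named high-collagen libraries below, and results that they move are also given without them. The labels do not say which cultures gave the ChIP chromatin.

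The 4 promoters and the microRNA below belong to genes at the densest stretches of KO-only peaks described further on, and were chosen to show what such a peak covers. Each promoter runs from 250 bases before to 50 bases after a start (RefSeq, GRCh38.p14), 5′ to 3′ along the gene, with each CG dinucleotide in capitals. In the miRNA sequences the capitals mark the seed, bases 2 to 8. The LHX2 window is chr9:124011518-124011817 (plus strand), the printed MIR9-3HG window chr15:89362259-89362558 (plus strand), the OTX1 window chr2:63050580-63050879 (plus strand) and the NEUROG2 window chr4:112516131-112516430 (minus strand). The hairpin of MIR9-3 lies at chr15:89368017-89368106 (plus strand), within the span of MIR9-3HG.
LHX2: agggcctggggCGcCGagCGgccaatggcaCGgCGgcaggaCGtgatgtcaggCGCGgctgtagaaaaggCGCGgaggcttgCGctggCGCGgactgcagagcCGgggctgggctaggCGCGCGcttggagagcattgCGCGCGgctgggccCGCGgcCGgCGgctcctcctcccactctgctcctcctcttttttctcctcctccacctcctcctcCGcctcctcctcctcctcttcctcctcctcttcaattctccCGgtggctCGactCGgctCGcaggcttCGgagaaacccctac
MIR9-3HG: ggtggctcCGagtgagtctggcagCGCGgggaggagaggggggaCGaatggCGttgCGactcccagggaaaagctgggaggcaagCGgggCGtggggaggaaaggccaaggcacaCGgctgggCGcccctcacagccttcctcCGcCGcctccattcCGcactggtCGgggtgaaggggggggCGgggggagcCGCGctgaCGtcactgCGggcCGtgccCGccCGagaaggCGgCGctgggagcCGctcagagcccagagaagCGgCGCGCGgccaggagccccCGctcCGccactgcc
OTX1: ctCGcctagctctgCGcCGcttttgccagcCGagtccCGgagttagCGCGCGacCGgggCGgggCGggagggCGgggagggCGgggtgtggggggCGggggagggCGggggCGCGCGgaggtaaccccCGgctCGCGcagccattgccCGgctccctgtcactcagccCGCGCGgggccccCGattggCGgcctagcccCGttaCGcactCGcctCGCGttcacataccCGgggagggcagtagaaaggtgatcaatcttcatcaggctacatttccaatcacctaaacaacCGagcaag
NEUROG2: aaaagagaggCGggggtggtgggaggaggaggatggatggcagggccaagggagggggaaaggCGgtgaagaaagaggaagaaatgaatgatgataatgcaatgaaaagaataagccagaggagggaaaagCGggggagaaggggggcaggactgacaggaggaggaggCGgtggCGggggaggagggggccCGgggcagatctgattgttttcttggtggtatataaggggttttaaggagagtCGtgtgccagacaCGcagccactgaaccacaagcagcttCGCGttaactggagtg
hsa-miR-9-5p: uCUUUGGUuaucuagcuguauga
hsa-miR-9-3p: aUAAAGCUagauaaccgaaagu
The KO-only peak covered all 300 bases of the printed MIR9-3HG window, 217 bases of the OTX1 window, 124 bases of the LHX2 window and 47 bases of the NEUROG2 window. MIR9-3HG has 3 promoter windows under KO-only peaks, with 13, 31 and 21 CG, and the 1 with most CG is printed; the window with 13 was also covered in all 300 bases. The printed LHX2, MIR9-3HG and OTX1 windows hold 30, 31 and 34 CG dinucleotides, and as many or more were found in 22.4%, 20.7% and 15.6% of all 300-base promoter windows. NEUROG2, a proneural factor, has 10 CG, a number reached by 56.4% of windows. The motif CG reads the same on both strands.

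KO-only peaks were short and weak beside the shared KO peaks. Their length had a median of 407 bp and ran from 287 bp, the fragment length that the peak caller used, to 10687 bp. The middle 50% lay between 323 and 569 bp. Shared KO peaks had a median of 1158 bp and WT-only peaks 386 bp. All KO-only peaks together covered 2.32 Mb, which is 13.9% of the base pairs under the KO list, against 14.4 Mb under the shared KO peaks. The authors' own fold enrichment over the control at the summit had a median of 4.0 in KO-only peaks (2.17 to 14.7), 5.51 in shared KO peaks and 4.59 in WT-only peaks. The pileup at the summit had a median of 22.0 reads in KO-only peaks, 32 in shared KO peaks and 17 in WT-only peaks. The −log10 q had a median of 6.14 in KO-only peaks, 13.2 in shared KO peaks and 5.68 in WT-only peaks.

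The share of KO peaks that were KO-only was lower with every step of length. Under 500 bp it was 67.7% (3012 of 4447 peaks), and at 5 kb or longer it was 0.876% (5 of 571). By fold enrichment it was 63.8% between 3 and 4 (1972 of 3089), 32.2% between 5 and 6 (433 of 1346) and 0.885% at 8 or more (16 of 1808). Of the KO-only peaks 67.0% were under 500 bp, and a small group of 42 peaks was 2 kb or longer.

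**Figure D1:**
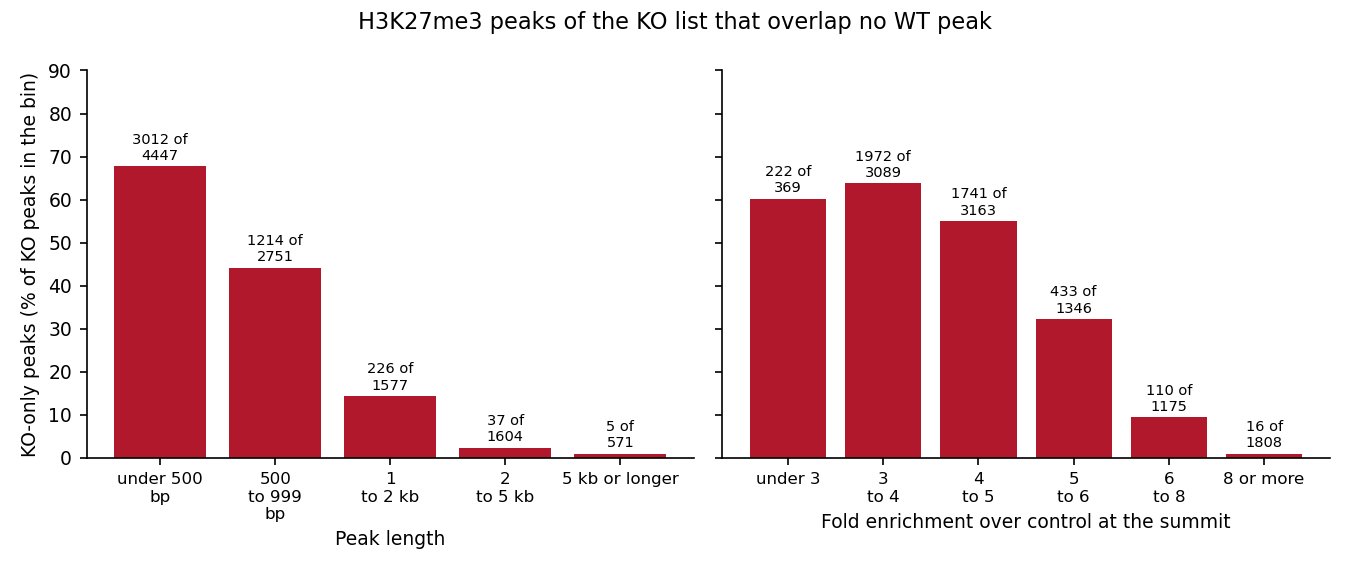
Share of KO H3K27me3 peaks that are KO-only (y axis, percent), by bins of peak length (left) and of the authors' fold enrichment at the summit (right); the numbers over the bars are KO-only peaks of all KO peaks in the bin. The share is 67.7% under 500 bp and 0.876% at 5 kb or longer, and 0.885% at a fold enrichment of 8 or more.

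At the edge of the rule, a few base pairs separated members from other peaks. The 5 KO-only peaks closest to a WT peak lay 3 to 4 bp from it, such as the peak in PAX3 at chr2:222244696-222245344 (649 bp, fold enrichment 4.74). The 5 shared peaks of smallest overlap shared 1 to 3 bp with a WT peak, such as that at CALB2 at chr16:71359575-71359883 (309 bp, fold enrichment 4.04). PAX3 encodes a neural crest factor and CALB2 the calcium-binding protein calretinin.

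Many KO-only peaks lay beside shared peaks. The distance from a KO-only peak to the nearest shared KO peak had a median of 3.33 kb, and the middle 50% lay between 0.565 and 77.8 kb. Within 1 kb of a shared peak were 1505 KO-only peaks (33.5%), within 10 kb 2689 (59.8%) and within 100 kb 3482 (77.5%). For WT-only peaks and the shared peaks of their own list, the median was 5.61 kb and these shares were 30.1%, 54.9% and 75.3%. At the far end, 1012 KO-only peaks (22.5%) lay more than 100 kb from any shared peak, the farthest 20.6 Mb away.

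By position to genes, KO-only peaks split almost evenly. A start of a gene lay within 2 kb of 1476 peaks (32.8%), 1496 (33.3%) lay elsewhere in a gene span and 1522 (33.9%) between genes. Shared KO peaks lay at starts more often (58.5%), while WT-only peaks had a share of 34.5%. The share at a start was 36.2% within 1 kb of a shared peak, 19.1% between 1 and 10 kb, 27.2% between 10 and 100 kb and 48.3% beyond 100 kb. Of the 42 peaks of 2 kb or longer, 17 lay beyond 100 kb and 9 within 1 kb. By chromosome, KO-only peaks were between 32.6% (chromosome 4, 130 of 399) and 47.8% (chromosome X, 96 of 201) of the KO peaks.

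**Figure D2:**
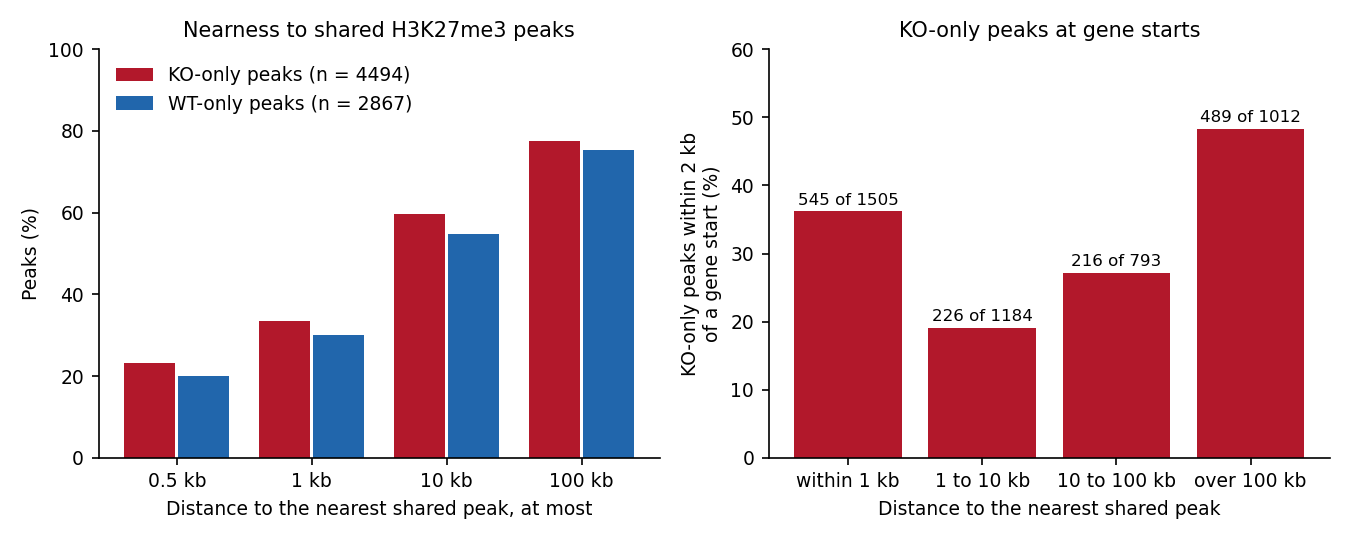
Left, percent of KO-only and of WT-only peaks that lie within 0.5, 1, 10 and 100 kb of a shared peak of their own list. Right, percent of KO-only peaks with a gene start within 2 kb, by distance to the nearest shared KO peak; the highest bar is 489 of 1012 peaks beyond 100 kb (48.3%) and the lowest 226 of 1184 between 1 and 10 kb (19.1%).

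Promoters under KO-only peaks and no shared KO peak held fewer CG dinucleotides than those under shared peaks. The 248 promoter windows that a KO-only peak and no shared KO peak overlapped had a median of 17 CG per 300 bases. Of these windows 45.6% had 20 or more. A window under both kinds of peak was counted as shared. The 2390 windows under shared KO peaks had a median of 26 CG, with 20 or more in 68.5%. The 304 windows under WT-only peaks had a median of 25 CG, and all 35116 windows had a median of 14 CG, with 20 or more in 41.2%. H3K36me3, a mark of transcribed gene bodies, was nearly absent from KO-only peaks in the KO list: 4 of 4494 (0.0890%) overlapped a KO H3K36me3 peak and 33 (0.734%) a WT H3K36me3 peak. For shared KO peaks these numbers were 8 (0.124%) and 24 (0.372%) of 6456.

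Several of the longest KO-only peaks lay at genes of the developing forebrain. The longest, chr15:89359089-89369775 (10687 bp, fold enrichment 8.38), covers the start of MIR9-3HG, the host RNA of 1 of the 3 miR-9 loci, and the MIR9-3 hairpin itself. miR-9 is a microRNA abundant in neural progenitors and neurons, and both strands of its hairpin are printed above. The second, chr9:124011694-124019421 (7728 bp, fold enrichment 9.48), begins in the printed LHX2 promoter and runs into the gene. LHX2 is a LIM homeobox factor of cortical progenitors. The next, chr15:89405422-89412397 (6976 bp, fold enrichment 7.00), lies in the uncharacterised RNA gene LOC105371031.

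A pair of neighbouring peaks lay at the start of MIR9-2HG, the host RNA of a second miR-9 locus. These were chr5:88684208-88690974 (6767 bp, fold enrichment 9.16) and chr5:88691686-88696883 (5198 bp, fold enrichment 10.1). The MIR9-2 hairpin lies 5.30 kb from a KO-only peak and 222 kb from the nearest WT peak. The remaining hairpin, MIR9-1, lies under a shared KO peak, 1.84 kb from a KO-only peak and 0.107 kb from a WT peak. Of 1562 miRNA hairpins in the table, 3 lay under a KO-only peak, MIR9-3, MIR1179 and MIR5691, while 44 lay under a shared KO peak and 1 under a WT-only peak.

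Another long peak, chr19:1465973-1470876 (4904 bp, fold enrichment 10.2), lay inside APC2, a neuronal relative of the APC tumour suppressor. NEUROG2 is a proneural factor that starts neuronal differentiation. A peak of 3896 bp (chr4:112508493-112512388, fold enrichment 9.01) lay 1.13 kb from NEUROG2, and a second of 2697 bp (chr4:112513481-112516177, fold enrichment 10.1) reaches its printed promoter. High fold enrichment was not confined to long peaks. The highest, 14.7, was that of a 705 bp peak between genes (chr7:157461082-157461786), 43.6 kb from DNAJB6. A 679 bp peak of 10.0 lay at the start of PGK1, a glycolytic enzyme gene on the X chromosome (chrX:78103730-78104408), 656 kb from any WT peak. SP8, a zinc finger factor of the forebrain, had one of 9.97 at its start, and ATP2B2, a calcium pump, one of 9.81 within the gene.

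KO-only peaks formed runs, defined after the data were seen as neighbouring KO-only peaks with gaps of at most 10 kb and no shared KO peak or WT peak in between. Of 3111 runs, 2284 held 1 peak and 61 held 5 or more, and those 61 held 405 peaks. Of the 12 runs with most covered bases, 10 are described here. The run at POU3F3, a POU factor of cortical neurons, and its neighbour PANTR1 held 15 peaks that covered 11 kb of a span of 27.9 kb (chr2:104843560-104871487), with the nearest WT peak 1194 kb away. No single peak of it lay within 2 kb of the POU3F3 start. The MIR9-3HG run held 8 peaks that covered 16.3 kb of a span of 20.4 kb. The MIR9-2HG run held 9 covering 15.3 of 24.6 kb, and the LOC105371031 run 9 covering 13.9 of 22.5 kb.

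The other 6 of these runs lay next to peaks that both lists hold. They lay, with the covered length in brackets, at SP8 (9 peaks, 11.9 kb), LHX2 (4 peaks, 10.4 kb), EMX2 (11 peaks, 9.98 kb), OTX1 (5 peaks, 7.37 kb) and NEUROG2 (3 peaks, 7.36 kb), and 0.896 kb from FEZF2 (4 peaks, 6.55 kb). EMX2 and OTX1 are homeobox factors of the early forebrain, and FEZF2 is a zinc finger factor of deep-layer cortical neurons. At these 6 runs the nearest shared KO peak was 0.0840 to 0.589 kb away. At LHX2 that peak was 11515 bp long and WT peaks covered 505 bp of it (4.39%). At FEZF2 it was 7494 bp long with 431 bp covered by WT (5.75%), at SP8 2817 bp with 290 bp (10.3%), at EMX2 3972 bp with 456 bp (11.5%) and at OTX1 1949 bp with 442 bp (22.7%). At NEUROG2 it was 6879 bp long with 2071 bp covered by WT (30.1%). At these genes, then, the KO list also had more covered length inside peaks that the rule counts as shared.

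**Figure D3:**
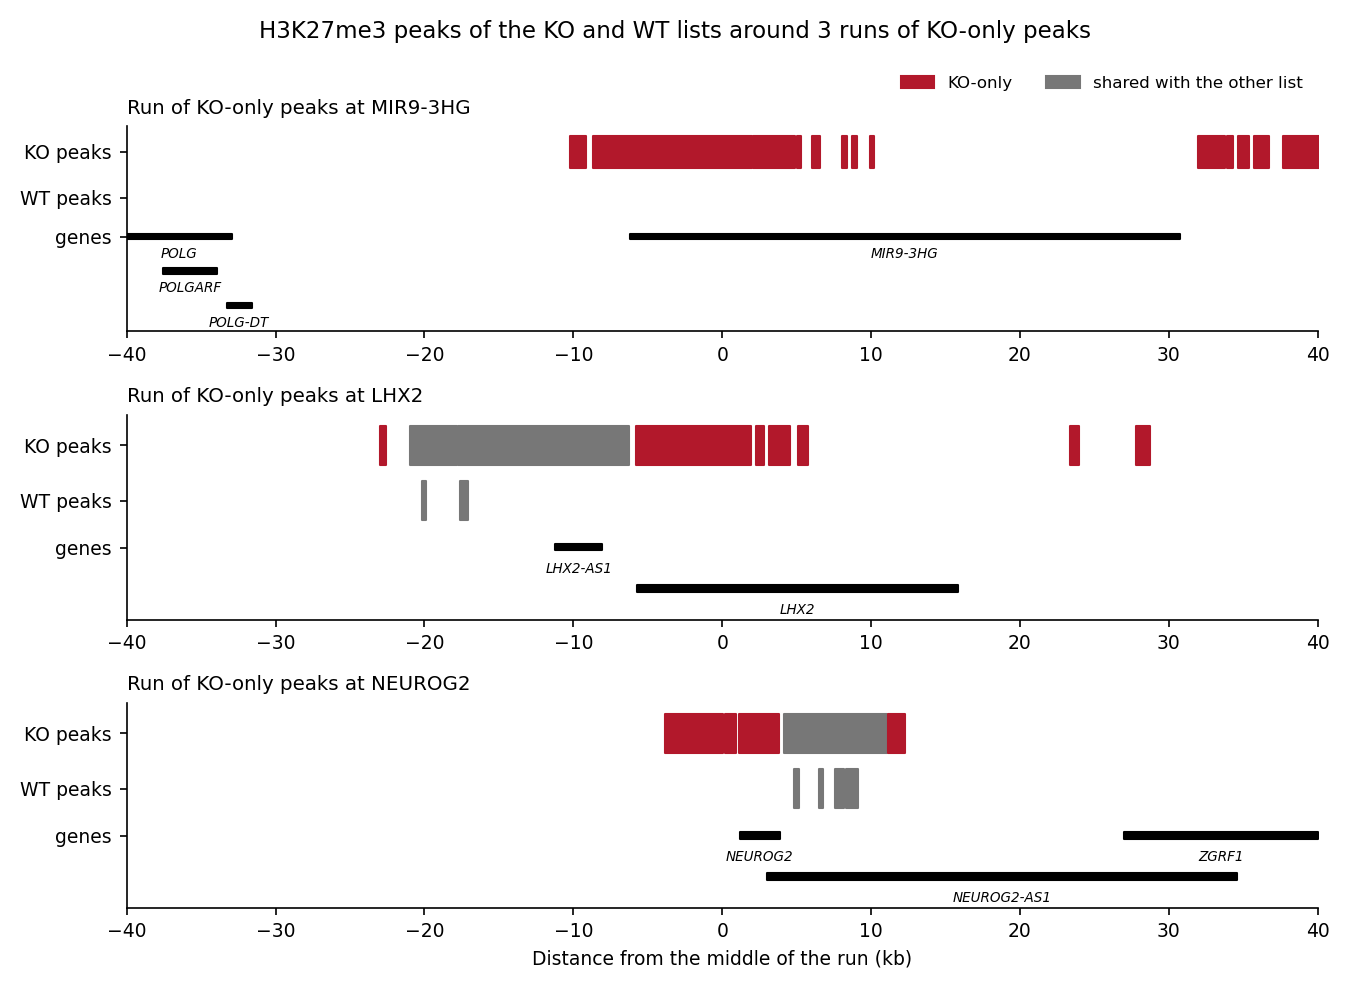
H3K27me3 peaks of the KO list (upper row of each map) and of the WT list (lower row), with gene spans below, around the runs at MIR9-3HG, LHX2 and NEUROG2; the x axis is the distance from the middle of the run in kb, red marks KO-only peaks and grey marks peaks that both lists hold. No WT peak lies in the window at MIR9-3HG, and at LHX2 and NEUROG2 short WT peaks face a long shared KO peak beside the run. Gene spans are cut at the edges and RNA genes named LOC are left out.

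Inside gene bodies, KO-only peaks were most numerous in RNF220, an E3 ubiquitin ligase, with 36 peaks over 22223 bp of a 247 kb gene that also held 13 shared peaks. LOC105378250, an RNA gene on chromosome 12, held 31 KO-only peaks, and LINC02086 and PCAT19 17 each. NFIX, a nuclear factor I gene, held 14 KO-only and 14 shared peaks. In all, 2280 genes held at least 1 KO-only peak in or within 2 kb of their span, and 293 held 3 or more.

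Of 38149 genes with a start in the annotation, 1325 had a KO-only peak within 2 kb of a start. A shared KO peak lay there too in 637 of them, among them LHX2, SP8, OTX1, NEUROG2 and FEZF2. The other 688 genes had a KO-only peak and no shared one, and 86 of these also had a WT-only peak at a start. These 688 are called KO-only start genes and are 1.80% of all genes. A shared KO peak lay at a start of 3592 genes, and 493 genes had only a WT-only peak.

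The share of KO-only start genes in a list depends on how many of its genes have a shared peak, since those are left out. Of the genes with no shared peak at a start, KO-only start genes were 55.6% of potassium channel genes (10 of 18), 28.0% of forebrain and progenitor factors (7 of 25), 23.1% of signalling genes (3 of 13) and 21.2% of synaptic genes (7 of 33), beside 1.99% of all genes. On this basis pan-neuronal markers had 13.3% (2 of 15), axon guidance genes 11.4% (4 of 35) and glial markers 11.1% (1 of 9). Polycomb genes had 9.09% (2 of 22), mesenchymal genes 8.70% (2 of 23), and epithelial and endothelial markers 0 of 8. The 1.99% is over all genes with no shared peak, RNA genes and genes not tested for RNA included. The shares that follow are of all list genes with a start. For potassium channels the share was 18.5% (10 of 54), with KCNN1, a calcium-activated channel (fold enrichment 7.51), and KCNK10, a leak channel (4.73), among them. For synaptic genes it was 14.3% (7 of 49), with the adhesion gene NRXN2 (6.15) and the glutamate receptor subunits GRIA4 (4.89) and GRIN2B (4.24). For forebrain and progenitor transcription factors it was 10.1% (7 of 69), with SOX1 (6.89), EMX2 (5.87), HES5 (4.88) and POU3F4 (4.40). Pan-neuronal markers had 2 of 25, the neurofilament gene INA (6.0) and the zinc finger gene MYT1L (4.80). Polycomb genes had 2 of 30, PHF19, an accessory subunit of the complex that writes the mark (4.74), and PHC2, a subunit of Polycomb repressive complex 1 (4.60).

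Lists of regulators of other regions and lineages could hold few KO-only start genes, since a shared KO peak lay at a start of 39 of 39 HOX genes, 54 of 55 midbrain, hindbrain and spinal factors and 71 of 79 non-neural factors. They had 0, which the definition nearly fixes. Epithelial and endothelial markers had 0 of 18. Axon guidance genes had 4 of 56, among them DCC, a netrin receptor, and signalling genes of the WNT, BMP, FGF and hedgehog pathways 3 of 68. Mesenchymal genes had 2 of 34, THY1 and COL8A1, and glial markers 1 of 15.

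The RNA comparison asks whether genes with a KO-only peak at a start differed in RNA between KO and WT neurons. Of the 688 KO-only start genes, 432 passed the filter on low counts and were tested. Whether each library is a differentiation of its own is not stated in the labels, and the p-values below cover the spread among these 8 libraries alone. edgeR's quasi-likelihood test over 18614 genes, with Benjamini-Hochberg adjustment, called 0 genes lower (0%) and 0 higher (0%) at an adjusted p under 0.05, KO-only start genes included. At an unadjusted p under 0.05 it gave 51 of the 432 genes as lower in KO (11.8%), beside 6.45% of all genes tested. It gave 35 as higher (8.10%), beside 11.5% of all genes. In the authors' deposited table, 15 of the 432 had an adjusted p under 0.05 and were lower in KO (3.47%), beside 1.24% of all genes, and 22 were higher (5.09%), beside 5.23%. DESeq2, run here on all libraries, called 15 of 450 lower (3.33%), beside 1.15%, and 22 higher (4.89%), beside 4.81%. With KO2 alone against WT, edgeR called 51 of 440 lower (11.6%), beside 3.67%, and 30 higher (6.82%), beside 8.25%; both KO2 libraries have high collagen RNA.

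The median log2 fold change of KO over WT was -0.20 in KO-only start genes, -0.01 in all genes tested, 0.27 in genes with a shared KO peak at a start and 0.78 in those with a WT-only peak. A negative value was found in 273 of the 432 genes (63.2%), beside 50.6% of all genes. In 53 of the 432 genes (12.3%) all 5 KO libraries lay below all 3 WT libraries, beside 6.16% of all genes. In 15 (3.47%) they lay above, beside 6.29% of all genes. Before any comparison, these genes had a median of 18.8 CPM in WT, against 4.87 CPM for genes with a shared KO peak at a start and 30.5 CPM for those with no peak.

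The size of the shift moved with the 3 high-collagen libraries. The median difference from the WT mean, on a scale of log2(CPM + 0.5), was -0.57 in KO1 replicate 2, -0.18 in KO2 replicate 1 and -0.43 in KO2 replicate 2. It was -0.07 and -0.03 in KO1 replicates 1 and 3. With KO1 replicates 1 and 3 alone against WT, the median log2 fold change was -0.09 in KO-only start genes and 0.00 in all genes. For genes with a shared KO peak it was then -0.01, and for those with a WT-only peak 0.18. edgeR called 0 genes on those 5 libraries. By DESeq2 on them, chosen after the data were seen, 11 of 416 KO-only start genes were called lower (2.64%), beside 0.616% of all genes. Among them were ASIC1, CNTFR, CSPG5, GAREM2, KCNH2, NKAIN4, POU3F4, SEMA5B, TMEM145 and ZNF703. In the same fit 4 were called higher (0.962%), beside 0.921% of all genes, namely DLEC1, ETV5, PCDH20 and SLC7A8. In bulk RNA, fewer cells of a type and less RNA per cell cannot be told apart.

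**Figure D4:**
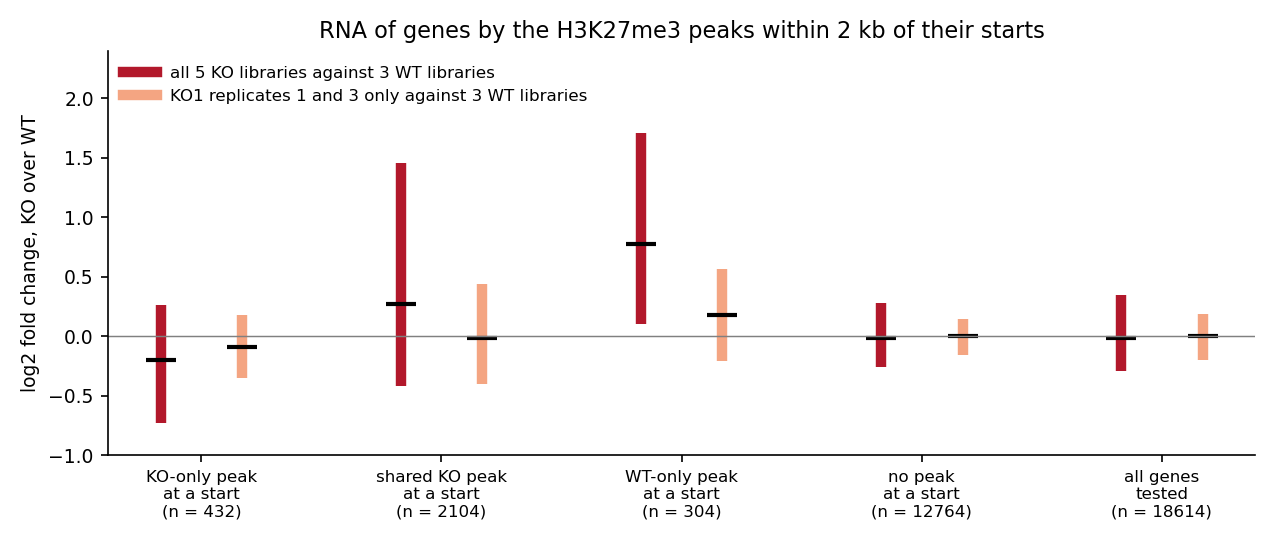
Log2 fold change of RNA, KO over WT (y axis), for genes grouped by the H3K27me3 peak within 2 kb of a start; the black mark is the median over genes and the bar spans the middle 50%. Dark bars compare all 5 KO libraries and light bars KO1 replicates 1 and 3 with the 3 WT libraries, and the numbers give the genes tested in the dark comparison. KO-only start genes have medians of -0.20 and -0.09, all genes tested -0.01 and 0.00.

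Among 3 classes of peak length the median was lowest, with all libraries, for genes under the longest peaks, and these differences were not tested. The 79 tested genes with a peak of 1 kb or longer had a median log2 fold change of -0.60. Of them 56 (70.9%) were negative, beside 50.6% of all genes tested. In 12 of the 79 all KO libraries lay below WT (15.2%), beside 6.16% of all genes, and in 0 above (0%), beside 6.29%. The 224 genes with a peak under 500 bp had a median of -0.17 and the 129 with one of 500 bp to under 1 kb a median of -0.13. In these shorter classes, in that order, 60.3% and 63.6% were negative. All KO libraries lay below WT in 11.6% and 11.6%, and above in 4.02% and 4.65%. Without the 3 high-collagen libraries the medians of the 3 classes were, from the 79 genes on, -0.07, -0.10 and -0.07. Genes whose peak lay beyond 100 kb from a shared peak (294) had a median of -0.20, those at 10 to 100 kb (104) a median of -0.22, those at 1 to 10 kb (26) a median of -0.08 and those within 1 kb (8) a median of -0.72. Without the 3 high-collagen libraries these medians were -0.04, -0.13, -0.17 and -0.21.

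Forebrain genes under the runs had low RNA in the 3 high-collagen libraries. MIR9-2HG, whose RNA carries the symbol LINC00461 in the table, stood at 242, 31.6 and 379 CPM in KO1, 88.7 and 146 CPM in KO2, and 669, 494 and 503 CPM in WT. MIR9-3HG stood at 106, 25.9 and 185 CPM in KO1, 71.1 and 86.8 CPM in KO2, and 272, 211 and 214 CPM in WT. For both host RNAs every KO library lay below every WT library. The log2 fold changes were -1.65 and -1.29, with adjusted p-values of 0.261 and 0.259 by edgeR. Without the 3 high-collagen libraries they were -0.84 and -0.68, with adjusted p-values of 0.0520 and 0.273 by DESeq2, while edgeR on the same libraries gave 0.514 and 0.594.

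POU3F3 stood at 254, 24.7 and 243 CPM in KO1, 36.1 and 105 CPM in KO2, and 350, 347 and 387 CPM in WT. Here too the groups did not overlap, with a log2 fold change of -1.45 and an adjusted p of 0.310 by edgeR. Without the 3 high-collagen libraries it was -0.54, with an adjusted p of 0.00406 by DESeq2, while edgeR on the same libraries gave 0.423. In the authors' deposited table, on all libraries, the adjusted p was 0.224. LHX2 stood at 229, 8.87 and 262 CPM in KO1, 10.7 and 85.4 CPM in KO2, and 472, 361 and 222 CPM in WT. NEUROG2 stood at 57.1, 4.21 and 130 CPM in KO1, 2.11 and 37.6 CPM in KO2, and 122, 166 and 98.8 CPM in WT. KO and WT overlapped in both, through KO1 libraries, and the log2 fold changes were -1.56 (adjusted p = 0.410 by edgeR) and -1.48 (0.449). They were -0.51 and -0.46 by edgeR without the 3 high-collagen libraries.

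EMX2 (log2 fold change -1.22), OTX1 (-1.0), FEZF2 (-1.05) and SP8 (-0.64) had adjusted p-values of 0.555, 0.641, 0.687 and 0.818 by edgeR. With KO1 replicates 1 and 3 alone EMX2 was at -0.18 and OTX1 at -0.01, while FEZF2 (0.02) and SP8 (0.50) were no longer negative. KO2 replicate 1 had the lowest SP8 and FEZF2 RNA, 0.0448 CPM each, against 64.2 to 116 CPM of SP8 and 60.5 to 227 CPM of FEZF2 in WT. The mean log2 CPM over 64 tested forebrain and progenitor factors was 2.80, 2.42 and 4.41 in the high-collagen ones, 5.31 and 5.38 in the remaining pair of KO libraries, and 5.17, 5.66 and 5.40 in WT. The low RNA of these genes thus lay in the libraries with high mesenchymal RNA, and the part of culture makeup in it was not tested. PGK1 stood at 162 to 234 CPM in KO and 174 to 215 CPM in WT (log2 fold change -0.02, adjusted p = 0.958 by edgeR). APC2 averaged 230 ± 114 CPM in KO (SD, n = 5) and 402 ± 101 CPM in WT (SD, n = 3), with an adjusted p of 0.333 by edgeR. ATP2B2 averaged 17.8 ± 8.99 CPM in KO and 34.1 ± 19.6 CPM in WT, with an adjusted p of 0.398 by edgeR. The log2 fold changes of APC2 and ATP2B2 were -0.80 and -0.94 with all libraries and -0.22 and -0.49 without the high-collagen ones.

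**Figure D5:**
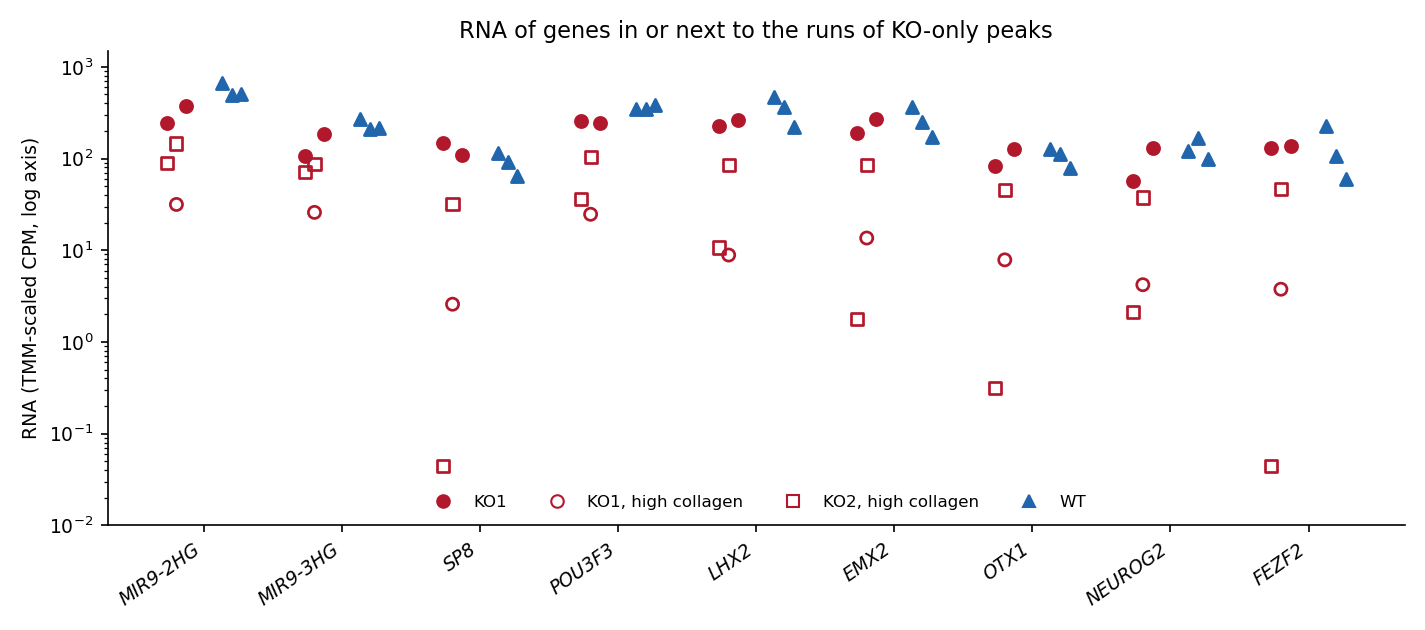
RNA of 9 genes in or next to the runs described (y axis, TMM-scaled CPM on a log axis), 1 point per library; KO libraries (circles, KO1; squares, KO2) stand left of WT libraries (triangles), and open symbols mark the 3 high-collagen libraries. The open symbols are the lowest points of every gene shown, down to 0.0448 CPM for SP8 and FEZF2, and the filled KO1 points lie above them in each gene.

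The KO-only start genes with the smallest p among those lower in KO were of several kinds. ASIC1, an acid-sensing ion channel, stood at 33.7, 24.0 and 29.6 CPM in KO1, 36.5 and 27.8 CPM in KO2, and 53.1, 53.4 and 62.9 CPM in WT. Its peak at the start was 885 bp long with a fold enrichment of 6.20. GAREM2, an adaptor of growth factor receptors, stood at 50.4, 33.7 and 56.4 CPM in KO1, 21.4 and 45.0 CPM in KO2, and 109, 99.3 and 103 CPM in WT, under a peak of 526 bp (5.04). For both genes the KO libraries lay below WT with or without the 3 high-collagen libraries. The log2 fold changes were -0.90 and -1.33 with all libraries (adjusted p = 0.243 by edgeR in both) and -0.84 and -0.96 without those 3 (adjusted p = 3.04e-04 and 1.50e-08 by DESeq2, and 0.391 and 0.255 by edgeR on the same libraries). In the authors' deposited table their adjusted p-values were 1.03e-04 and 0.00311.

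POU3F4, a POU factor of the forebrain on the X chromosome, stood at 20.0, 4.43 and 24.6 CPM in KO1, 12.2 and 14.7 CPM in KO2, and 32.5, 62.0 and 88.6 CPM in WT. It was called lower in the authors' deposited table (log2 fold change -2.0, SE 0.53, adjusted p = 0.00795), and its peak lay 6059 kb from the nearest WT peak. CSPG5, a neural chondroitin sulphate proteoglycan, averaged 12.6 ± 5.61 CPM in KO and 31.4 ± 2.33 CPM in WT. It was called lower in that table (adjusted p = 0.0371). By edgeR on all libraries POU3F4 and CSPG5 had log2 fold changes of -2.01 and -1.32, both with an adjusted p of 0.243. Without the high-collagen libraries edgeR gave -1.45 and -0.91 (adjusted p = 0.517 and 0.391). DESeq2 on the same libraries gave adjusted p-values of 0.0160 and 5.99e-05. PHF19 averaged 26.8 ± 1.98 CPM in KO and 35.5 ± 0.959 CPM in WT, a small difference without overlap, with an adjusted p of 0.243 by edgeR (0.0188 in the authors' deposited table). Its partner in the Polycomb list, PHC2, averaged 152 ± 56.0 CPM in KO and 207 ± 10.7 CPM in WT, and the groups overlapped (log2 fold change -0.44, and 0.03 without the high-collagen libraries).

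The other lower genes of the 10 with the smallest p were PRKCQ-AS1, CDKN2C, SEMA7A, RNF157, CACNA1H and C17orf58, with log2 fold changes of -1.65, -0.72, -0.79, -0.88, -0.57 and -0.72. CDKN2C is an inhibitor of cyclin-dependent kinases, SEMA7A a membrane-anchored semaphorin and CACNA1H a T-type calcium channel. In each, all KO libraries lay below all WT libraries, and edgeR gave an adjusted p of 0.243. Of these, RNF157 moved by over 1.5 times, to -0.55, without the high-collagen libraries. All 6 were called lower in the authors' deposited table. A WT peak lay near the KO-only peak of C17orf58 (0.213 kb) and CDKN2C (1.18 kb). In the rest of the 6 the nearest WT peak was 66.0 to 377 kb away.

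KO-only peaks also lay at starts of genes with more RNA in KO. SLC7A8, an amino acid transporter, stood at 33.5, 29.1 and 20.1 CPM in KO1, 69.0 and 40.4 CPM in KO2, and 13.7, 9.15 and 6.81 CPM in WT. Each KO library had more than any WT library, and the log2 fold change was 1.96 with all libraries (adjusted p = 0.243 by edgeR) and 1.43 without the 3 high-collagen ones (adjusted p = 0.0111 by DESeq2 and 0.451 by edgeR on the same libraries). AMIGO2, an adhesion protein of neurons, averaged 19.9 ± 5.91 CPM in KO and 6.09 ± 3.59 CPM in WT, and SPTBN1, a spectrin, 489 ± 87.3 CPM in KO and 307 ± 40.1 CPM in WT. DKK1, a WNT antagonist, averaged 1.58 ± 0.712 CPM in KO and 0.409 ± 0.127 CPM in WT. ANO2, LRP1B, INPP4B and SERTAD4-AS1 had log2 fold changes of 1.13, 1.43, 2.28 and 3.17 with all libraries, and 1.22, 0.85, 1.13 and 1.38 without the high-collagen ones. AMIGO2, SPTBN1 and DKK1 were at 1.71, 0.67 and 1.92 with all libraries and 1.18, 0.44 and 1.38 without those. A WT peak lay near the KO-only peak of DKK1 (0.382 kb), SPTBN1 (0.359 kb) and AMIGO2 (1.22 kb). All of these 8 genes were called higher in the authors' deposited table.

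In AMIGO2, SPTBN1, LRP1B, INPP4B and SERTAD4-AS1 each of the 3 high-collagen libraries had more RNA than the other KO libraries. RNA was also highest in the high-collagen libraries in the higher genes that follow. COL8A1, a short-chain collagen, stood at 223, 92.3 and 118 CPM there, 6.67 and 3.73 CPM in the other KO libraries, and 0.203, 0.377 and 3.00 CPM in WT. ADAMTS15, a matrix protease, stood at 123, 90.9 and 82.8 CPM there, 13.0 and 20.6 CPM in the other KO libraries, and 7.46, 9.94 and 11.2 CPM in WT. For both, all KO libraries lay above WT. MME, a cell surface peptidase, stood at 130, 28.8 and 96.6 CPM in those 3 libraries, 2.68 and 3.23 CPM in the other KO libraries, and 0.446, 1.44 and 3.32 CPM in WT, so that the groups overlapped. The log2 fold changes of COL8A1, ADAMTS15 and MME were 6.28, 2.79 and 4.93 with all libraries and 2.17, 0.83 and 0.79 without those 3. The mesenchymal levels given above are high in the same 3 libraries, and their part in these values was not tested.

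Among the KO-only start genes of the lists that were tested, those of 5 lists had negative log2 fold changes throughout. All 10 potassium channel genes did (median -1.0, against -0.18 over the 49 tested genes of the list), as did all 7 synaptic genes (-0.71, against -0.44 over 49) and all 7 forebrain and progenitor factors (-1.22, against -1.03 over 64). The 2 pan-neuronal genes (-0.84) and the 2 Polycomb genes (-0.42) did too, where the median of all genes was -0.01. Of the axon guidance genes 1 of 4 was negative, and 0 of 3 signalling genes, 0 of 2 mesenchymal genes and 0 of 1 glial marker. No member of any list was called by edgeR. KCNK10 stood at 20.6, 2.69 and 23.2 CPM in KO1, 15.3 and 11 CPM in KO2, and 31.4, 32.6 and 27.3 CPM in WT, with every KO library below WT. KCNN1 averaged 17.3 ± 10.5 CPM in KO and 33.6 ± 3.47 CPM in WT, without overlap. KCNC1 averaged 25.3 ± 11.2 CPM in KO and 52.5 ± 12.3 CPM in WT, with overlap. Their log2 fold changes were -1.06, -0.95 and -1.05 with all libraries and -0.47, -0.30 and -0.56 without the 3 high-collagen libraries.

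NRXN2 averaged 105 ± 23.5 CPM in KO and 164 ± 45.7 CPM in WT (log2 fold change -0.65, adjusted p = 0.248 by edgeR), and GRIN2B 35.4 ± 12.9 CPM in KO and 57.8 ± 31.7 CPM in WT (-0.71, 0.374). INA averaged 209 ± 130 CPM in KO and 332 ± 135 CPM in WT (-0.67, 0.50), MYT1L 29.0 ± 20.3 CPM in KO and 58.4 ± 20.4 CPM in WT (-1.01, 0.390), and SOX1 66.2 ± 57.8 CPM in KO and 109 ± 32.6 CPM in WT (-0.72, 0.608). The KO and WT libraries overlapped in these 5 genes. On KO1 replicates 1 and 3 alone NRXN2 was at -0.43, GRIN2B at -0.31 and MYT1L at -0.27, while INA (0.05) and SOX1 (0.18) were not negative. The axon guidance gene DCC averaged 193 ± 139 CPM in KO and 220 ± 46.9 CPM in WT (-0.19). THY1, listed as mesenchymal and also made by neurons, averaged 57.7 ± 22.1 CPM in KO and 36.7 ± 7.90 CPM in WT (0.65), and SFRP2, a WNT-binding protein, 634 ± 898 CPM in KO and 121 ± 60.5 CPM in WT (2.38). Without the high-collagen libraries the direction turned in all 3, with 0.63 for DCC, -0.04 for THY1 and -0.03 for SFRP2.

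Genes with many KO-only peaks in their body went both ways. RNF220, with 36, stood at 69.3, 53.1 and 64.7 CPM in KO1, 53.2 and 52.0 CPM in KO2, and 76.3, 84.0 and 81.7 CPM in WT. All KO libraries lay below WT, with a log2 fold change of -0.46 (-0.27 without the high-collagen libraries) and an adjusted p of 0.243 by edgeR (0.0381 in the authors' deposited table). NFIX, with 14, stood at 57.1, 633 and 16.4 CPM in KO1, 273 and 342 CPM in KO2, and 81.3, 9.29 and 9.65 CPM in WT. The groups overlapped, and the log2 fold change was 2.98 with all libraries (adjusted p = 0.280 by edgeR) and 0.14 without the 3 high-collagen ones.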

How the data were processed

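Per the submitters' processing notes, reads were handled with Bowtie2 2.4.1, MACS2 2.2.7.1, Salmon 1.1.0 and DESeq2 1.26.0 on GRCh38; the labels give no other settings. The authors' RNA table lists, by gene symbol, estimated counts that are not normalized. Their deposited comparison table gives a normalized mean signal, log2 fold changes with SE, a test score and p-values. Per the file headers, each peak list rests on 1 treatment and 1 control alignment and a q cutoff of 0.01. The deposited peak tables give the pileup signal, −log10 q and the fold enrichment ratio at the summit.

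Peaks were intersected with pandas 2.3.3 in Python 3.11.15. Gene starts came from RefSeq promoters (34961 starts of 27195 genes), and for 10954 genes without one either end of the span was used; a peak within 2 kb counted as at a start. Estimated counts were rounded and tested with edgeR 4.0.16 in R 4.3.3 (TMM scaling, filterByExpr, quasi-likelihood, KO against WT over all libraries), with Benjamini-Hochberg adjustment. The procedure was also run on simulated counts that lack the split of the KO libraries by collagen RNA. That run does not show how the test performs on these libraries. DESeq2 1.42.0 was an alternative, with other overlaps, thresholds, windows, filters, scalings, lines and left-out libraries. The effect of these is given at the end. CPM intervals were not made, so the spread between libraries is the error given. Of the RNA table's libraries all were used; no sample was dropped or imputed except where stated.

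Genes named were the 10 lower and 10 higher with the smallest edgeR p, those called in the authors' deposited table (at most 12 a direction), the 8 with most peaks, and up to 6 of each list by fold enrichment. Peaks named were the 8 longest, the 8 of highest fold enrichment and 5 on each side of the rule's edge. Genes at the runs and long peaks were chosen after their values were seen. The members, lists and tests were chosen with earlier results of these data known. Some genes that these rules name are not reported here.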

Additional observations from a re-analysis of the deposited data

Results flagged for a closer look

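CDKN2C RNA in KO2 replicate 1 was 7.97 CPM, apart from the other 4 KO libraries at 10.5 to 11.5 CPM. SFRP2 RNA in KO1 replicate 2 was 2199 CPM, apart from 91.9 to 598 CPM in the other 4 KO libraries. Both were picked out because 1 library stood far from the rest of its group, and chance does so in about 1 in 20 groups.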

How the results depend on the processing

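Counting a WT peak within 1 kb as shared gave 2856 KO-only peaks, 31.2% at a start, 43.5% within 10 kb of a shared peak and a median distance of 18.7 kb. Requiring WT peaks to cover 50% gave 35.3% at a start and 55.5% within 10 kb. A −log10 q of 5 or more in both lists gave 34.4% at a start. A fold enrichment of 4 or more in KO peaks alone gave 2300 peaks with 58% within 10 kb. Peaks of 500 bp or longer in both lists gave 2170 peaks, 40.2%, 53.1% and 6.79 kb. Windows of 1, 5 and 10 kb gave 21.0%, 52.2% and 66.6% at a start, and gene spans 57.3%. The cause was not tested.

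Genes called, and KO-only start genes among them, were 1243 and 37 by DESeq2, 2251 and 81 by edgeR for KO2 against WT, and 272 and 15 by DESeq2 without the 3 high-collagen libraries, an alternative chosen after seeing the data. Both numbers were 0 in the other fits run, including each left-out library and the replicate block. The median log2 fold change of KO-only start genes was -0.26 with the replicate block and -0.30 to -0.15 with 1 library left out. Deviations of same-numbered libraries had correlations of -0.321 to 0.267. Libraries with different numbers were not compared, so these values cannot show whether same-numbered libraries share a batch.

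Without the 3 high-collagen libraries the sign turned, by edgeR and by DESeq2, in SP8 (0.50, 0.50), FEZF2 (0.02, 0.02), PGK1 (0.07, 0.07), PHC2 (0.03, 0.03), SOX1 (0.18, 0.17), INA (0.05, 0.04), SFRP2 (-0.03, -0.03), THY1 (-0.04, -0.05) and DCC (0.63, 0.62). DCC was 0.12 in KO1 against WT, and -0.51 to 0.07 with 1 library left out, positive without KO1 replicate 2. PGK1 was -0.11 to 0.08 with 1 library left out, namely 0.08, 0.03, 0.02 and 0.01 without WT replicate 1 or KO1 replicate 2, KO1 replicate 3 or KO2 replicate 2. The cause was not tested.

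With 1 peak list per genotype and unequal depth, peak differences have no error. RNA depth was at least 17.4 M counts, and the spread between KO libraries limits the RNA tests.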
